A study of Mus musculus with 6 samples.

Results

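The creatine kinase system was followed across 3 culture conditions through 6 genes, Ckb, Ckmt1, Ckm, Slc6a8, Gatm and Gamt, which were chosen by symbol from the 24940 genes of the deposited table. All 6 genes reached the minimum mean of 0.5 RPKM (reads scaled to transcript length and to mapped reads) over the 6 libraries that 11595 genes of the table passed. Ckmt1 reached it only through the libraries given RANKL without the extract, where it was highest. Bone marrow-derived macrophages (BMMs), which serve as osteoclast precursors, were grown from mouse femurs and tibias. They were first expanded for 3 days with M-CSF, the growth factor that keeps them alive. The -R cultures received M-CSF at 30 ng/mL alone, the +R cultures M-CSF and RANKL at 100 ng/mL, and the R+LE cultures M-CSF, RANKL and the methanol leaf extract (LE) of Abeliophyllum distichum at 10 μg/mL, each for 3 days. RANKL is the cytokine that drives these precursors to become osteoclasts. There were 2 libraries in each condition. The sample labels name C57BL/6 mice of 6 to 8 weeks whereas the methods of the study name ICR male mice, and the 2 sources also give culture plates of different sizes. No knockout or transgene was part of the design, and nothing in the labels says whether replicates came from separate animals, so the p-values measure the spread between these libraries, which may be technical.

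Creatine kinases move a phosphate group between ATP and creatine, so that phosphocreatine can store and carry energy to places in the cell where ATP is spent fast. Ckb encodes the cytosolic brain-type subunit, Ckm the cytosolic muscle-type subunit, and Ckmt1 the ubiquitous mitochondrial enzyme that sits in the intermembrane space and charges creatine with phosphate from newly made ATP. Creatine enters cells through the sodium-dependent transporter Slc6a8, or is made by Gatm, which joins arginine and glycine to guanidinoacetate, followed by Gamt, which methylates guanidinoacetate with S-adenosylmethionine. The brain-type enzyme is known in osteoclasts, where acid secretion onto bone consumes much ATP.

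The RPKM values fell on whole-read steps and so gave depths of 29390195 to 34846362 mapped reads per library, of which 74.2% to 80.7% lay on genes. The Rn45s entry, which covers the ribosomal RNA precursor, took 4.97% to 6.83% of gene reads without RANKL, 10.9% to 11.1% with RANKL and 11.2% to 13.5% with LE. As a check of the labels, the summed level of 9 osteoclast markers was 43.4 to 45.0 RPKM in -R, 1894 to 2161 RPKM in +R and 339.6 to 392.9 RPKM in R+LE. The summed level of 6 macrophage markers was 1395 to 1502 RPKM in -R, 792.4 to 902.2 RPKM in +R and 703.5 to 855.1 RPKM in R+LE. Most of this sum came from Cd68 and Csf1r, and the members did not move alike. Fcgr1 was 68.3 and 69.2 RPKM in -R and 1.51 and 1.77 RPKM in +R. Itgam was 69.6 and 71.4 RPKM in -R and 100.8 and 79.7 RPKM in +R. The libraries come from bulk cultures, in which fewer cells of a type and less RNA per cell cannot be told apart.

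Differences were tested with limma on log2(RPKM + 0.5), a scale that understates the change of low genes, and a gene is said to have risen or fallen where its adjusted p-value (Benjamini-Hochberg over 11595 genes) was below 0.05. Changes with RANKL compare +R with -R, and changes with LE compare R+LE with +R. A change is called at least 2-fold where the log2 difference was also at least 1 in size. Groups of 2 libraries allow no two-sided p-value under 0.33 in an exact permutation of one gene alone, so every call drew on the spread pooled across genes. Between +R and -R, 45.4% of all genes tested passed the adjusted p-value, as did 12.0% between R+LE and +R and 34.3% between R+LE and -R.

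**Figure D1:**
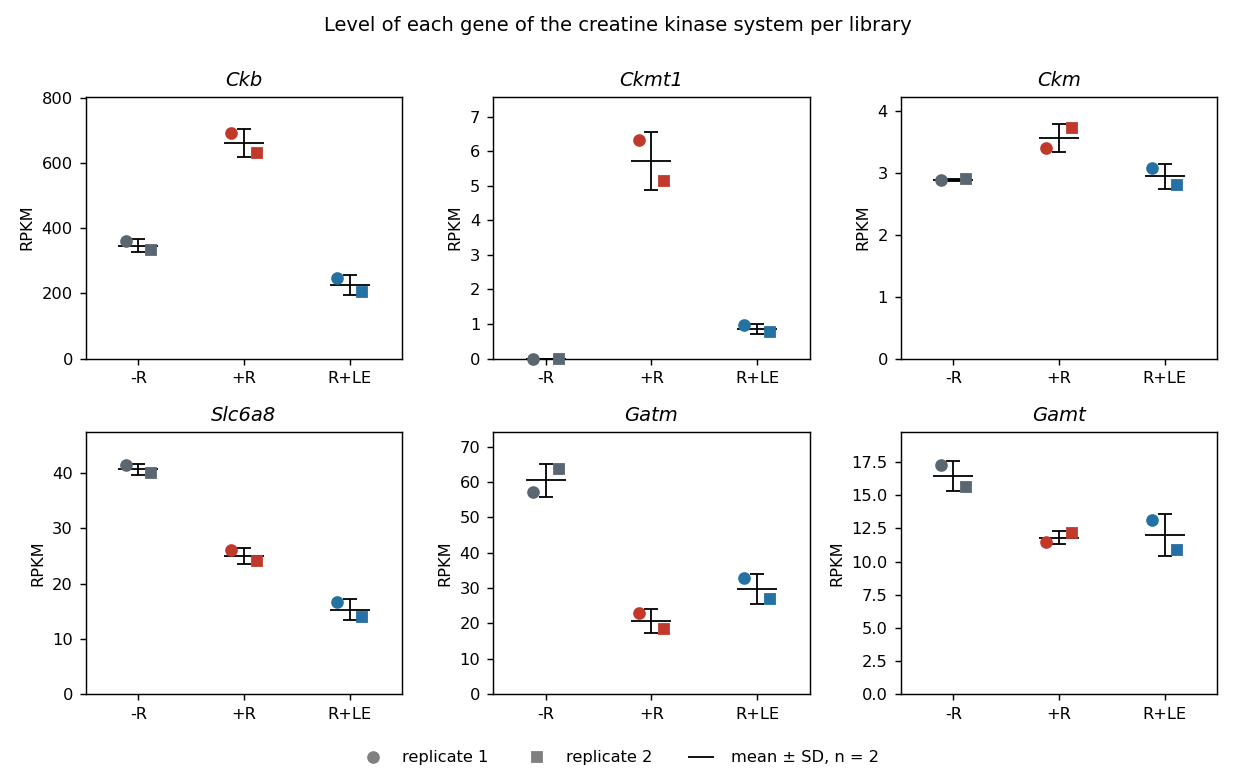
Level of each gene in RPKM (vertical axes from 0, with a different scale in each panel) in the 3 conditions. Circles are replicate 1, squares replicate 2, and the bar with whiskers is the mean ± SD of 2 libraries. Ckb and Ckmt1 are highest in +R, Slc6a8 and Gatm are highest in -R, and Ckm lies between 2.81 and 3.73 RPKM in all 6 libraries.

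Ckb was by far the most abundant gene of the system and rose with RANKL, and it fell with LE to below its level without RANKL. The gene lies on chromosome 12 of mm10 from 111669355 to 111672338 on the minus strand, and its 8 exons share no base with an exon of another annotated gene. Ckb was 359.8 and 333.1 RPKM in the -R libraries, 692.4 and 631.0 RPKM in the +R libraries, and 246.9 and 202.8 RPKM in the R+LE libraries. Both +R libraries were the highest, both R+LE libraries the lowest, and no 2 conditions overlapped. These levels rested on between 9068 and 31203 reads per library and placed Ckb among the 11595 genes at ranks 85 and 92 with RANKL, 160 and 169 without it, and 215 and 216 with LE.

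From -R to +R the mean level of Ckb went from 346.4 ± 18.8 RPKM to 661.7 ± 43.4 RPKM (SD, n = 2 each), a 1.91-fold rise. The log2 difference was 0.93 (standard error 0.18, adjusted p = 0.000493 in limma), just short of the 2-fold limit. With LE the level fell to 224.9 ± 31.2 RPKM (SD, n = 2), so that +R was 2.94-fold above R+LE. The log2 difference between R+LE and +R was -1.56 (standard error 0.18, adjusted p = 2.61e-05 in limma), and 0.517% of all genes tested fell by as much or more. Between R+LE and -R the log2 difference of Ckb was -0.63 (standard error 0.18, adjusted p = 0.0121 in limma). This last fall below -R was lost without -R replicate 1 (adjusted p = 0.158 in limma) or without -R replicate 2 (0.0916), and its adjusted p over the alternatives ran from 0.000609 to 0.158, while the log2 difference stayed between -0.77 and -0.49.

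Ckmt1, the mitochondrial partner, was not seen without RANKL, appeared with RANKL and was far lower when LE was added. It lies on chromosome 2 from 121357776 to 121363737 on the plus strand, and 10 bases of its last exon are shared with Strc on the opposite strand, which held at most 3 reads in any library. Neither -R library held a Ckmt1 read (0 and 0), the +R libraries held 292 and 237, and the R+LE libraries held 46 and 35. The level was 0 RPKM in both -R libraries, 6.32 and 5.12 RPKM in the +R libraries, and 0.968 and 0.763 RPKM in the R+LE libraries. The conditions did not overlap, and both R+LE libraries lay between those of -R and those of +R.

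Against the limit of 3 reads per library that a count of 0 allows, Ckmt1 was at least 91.6-fold higher in +R than in -R and at least 13.9-fold higher in R+LE than in -R, a limit that covers counting error only. The fitted log2 difference between +R and -R was 3.63 (adjusted p = 9.90e-10 in limma), but for a gene at 0 this size depends on the pseudocount. Between R+LE and +R the mean fell from 5.72 ± 0.842 RPKM to 0.866 ± 0.145 RPKM (SD, n = 2 each), so that +R was 6.61-fold higher. The log2 difference was -2.19 (standard error 0.20, adjusted p = 3.44e-06 in limma), and 0.112% of all genes tested fell by as much or more. Between R+LE and -R the fitted log2 difference was 1.45 (adjusted p = 3.72e-05 in limma), so cells given LE still held more Ckmt1 RNA than cells without RANKL. The summed osteoclast markers moved with Ckb and Ckmt1, rising in +R and falling in R+LE for 9 of 9 genes each time. Compared with -R, the R+LE libraries had higher levels of all 9 markers and of Ckmt1 but a lower level of Ckb, and the part of the markers in these results was not tested.

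Because Ckb and Ckmt1 both rose with RANKL and fell with LE while Ckm did not pass the test, the 250 bases before the annotated start of these 3 kinase genes are shown to allow a comparison. They were taken from RefSeq on GRCm38.p6, the assembly that mm10 names, and are written from 5′ to 3′ on the strand of the gene. The labels chr12.0, chr2.0 and chr7.0 stand for chromosomes 12, 2 and 7. Capitals mark matches, on either strand, to 7 short motifs, which were GGAAA (the NFAT core), the AP-1 site (the 7 base form with any base at its centre), CACGTG (E-box), TGACNNNGC (the antioxidant response element core), AAGGTCA (the ERR half-site), the promoter element TATAAA, and CCAAT.
Ckb (chr12.0:111672339-111672588, minus strand): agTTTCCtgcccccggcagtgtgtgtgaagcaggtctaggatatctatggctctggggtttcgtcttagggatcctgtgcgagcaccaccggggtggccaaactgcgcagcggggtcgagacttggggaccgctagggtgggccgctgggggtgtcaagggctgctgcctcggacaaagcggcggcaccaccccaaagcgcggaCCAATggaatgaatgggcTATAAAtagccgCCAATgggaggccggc
Ckmt1 (chr2.0:121357526-121357775, plus strand): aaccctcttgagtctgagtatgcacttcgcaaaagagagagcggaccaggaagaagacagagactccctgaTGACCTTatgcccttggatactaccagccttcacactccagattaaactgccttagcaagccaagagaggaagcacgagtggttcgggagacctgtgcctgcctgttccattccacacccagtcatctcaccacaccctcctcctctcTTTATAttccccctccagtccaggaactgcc
Ckm (chr7.0:19410844-19411093, plus strand): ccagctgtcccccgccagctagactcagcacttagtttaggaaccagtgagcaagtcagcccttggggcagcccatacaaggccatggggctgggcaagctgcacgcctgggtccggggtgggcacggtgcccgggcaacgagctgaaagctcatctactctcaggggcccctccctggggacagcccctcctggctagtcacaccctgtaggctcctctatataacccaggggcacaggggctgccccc

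In the Ckb window a TATAAA began 28 bases before the start, between CCAAT matches 46 and 16 bases before it, and a GGAAA on the reverse strand lay 248 bases before the start. In the Ckmt1 window a TATAAA on the reverse strand began 31 bases before the start and an AAGGTCA on the reverse strand 179 bases before it. No capital stands in the Ckm window, and the matches shown do not overlap each other. Only the exact strings were searched, so the similar letters tatataa near the start of Ckm were not marked. The absence of a capital there thus does not show that Ckm lacks such an element. Of the 32851 windows of the same length in the reference, 55.6% held GGAAA, 33.9% CCAAT, 12.4% TATAAA and 4.08% AAGGTCA, so a match to any of the first 3 is common. The AP-1 site, CACGTG and TGACNNNGC, which 6.75%, 6.02% and 10.2% of all windows held, were in none of the 3. A match is a string of letters and not a measured binding site. Windows were found for 5 of the 6 genes, all but Slc6a8. Gatm held only CCAAT, 190 and 55 bases before its start, and Gamt held none of the 7 motifs.

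Ckm, the muscle-type subunit, was read at a low and nearly level rate in all conditions. The gene lies on chromosome 7 from 19411094 to 19421583 on the plus strand. It was 2.88 and 2.90 RPKM in -R, 3.41 and 3.73 RPKM in +R, and 3.09 and 2.81 RPKM in R+LE, on 119 to 161 reads per library. Both +R libraries were above the others, while those of -R and R+LE overlapped.

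No difference of Ckm passed the test. The log2 difference was 0.26 between +R and -R (95% interval -0.06 to 0.58, adjusted p = 0.170 in limma), -0.24 between R+LE and +R (interval -0.56 to 0.08, adjusted p = 0.386), and 0.02 between R+LE and -R (interval -0.30 to 0.34, adjusted p = 0.926). Of the 1415 exon bases of Ckm, 451 are shared with exons of the antisense gene A930016O22Rik on the opposite strand, which held 72 to 104 reads per library. Reads were counted without regard to strand, so reads of this antisense gene and of Ckm cannot be told apart in the shared part. Among 11 skeletal muscle markers, the myosin heavy chains Myh1, Myh2 and Myh4 and the muscle regulator Myod1 had 0 RPKM in every library. The summed level of the muscle list was 2.41 to 2.70 RPKM in -R, 6.89 to 8.71 in +R and 4.21 to 5.88 in R+LE, most of it from the troponin gene Tnni2, at 1.66 to 7.66 RPKM per library.

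Slc6a8, the creatine transporter, fell with RANKL and fell again with LE, so that it was lowest in the R+LE cultures. It lies on the X chromosome from 73673133 to 73682500 on the plus strand. None of the 3312 exon bases examined was shared with another gene, while the counted transcript is 3940 bases long. It was 41.4 and 40.0 RPKM in -R, 26.0 and 24.0 RPKM in +R, and 16.7 and 13.9 RPKM in R+LE, on 1669 to 5485 reads per library. The 3 conditions formed 3 separate levels.

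The mean of Slc6a8 went from 40.7 ± 1.03 RPKM without RANKL to 25.0 ± 1.42 RPKM with RANKL and 15.3 ± 1.94 RPKM with LE (SD, n = 2 in each condition). The log2 difference was -0.69 between +R and -R (standard error 0.14, adjusted p = 0.000982 in limma) and -0.70 between R+LE and +R (standard error 0.14, adjusted p = 0.00400 in limma), neither of them 2-fold. Between R+LE and -R the log2 difference was -1.39 (standard error 0.14, adjusted p = 2.10e-06 in limma), with -R 2.66-fold higher, and this fall was at least 2-fold. Among 4 tested osteoblast and stromal markers, the collagen genes Col1a2 and Col3a1 fell with LE, while Col1a1 (log2 difference -0.45) and the bone regulator Runx2 (0.45) did not pass. The summed level of the list of 8 was 11.6 to 15.8 RPKM in +R and 9.10 to 10.5 RPKM in R+LE. With RANKL, where Slc6a8 also fell, Runx2 fell (-0.61), while Col1a1 (-0.47), Col1a2 (-0.15) and Col3a1 (-0.02) did not pass. Of the 6 macrophage markers, 5 fell with RANKL, among them Cd68 (-0.79) and Csf1r (-0.72), and Itgam (0.34) did not pass. With LE, Cd68 (-0.41) and Csf1r (-0.16) did not pass, and only Mertk passed, as a rise (0.52). The part of these markers in the fall of Slc6a8 was not tested.

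The genes of creatine synthesis were both lower with RANKL. Gatm, on chromosome 2 from 122594473 to 122611277 on the minus strand, was 57.2 and 63.7 RPKM in -R, 23.1 and 18.3 RPKM in +R, and 32.7 and 26.7 RPKM in R+LE, on 1321 to 5209 reads per library. The conditions did not overlap, and the R+LE libraries lay between the other conditions. From -R to +R the mean of Gatm fell from 60.5 ± 4.60 to 20.7 ± 3.34 RPKM (SD, n = 2 each), a log2 difference of -1.53 (standard error 0.16, adjusted p = 1.39e-06 in limma), with -R 2.92-fold higher. Gatm was thus the gene of the system with the largest fitted fall after RANKL.

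With LE the mean of Gatm was 29.7 ± 4.24 RPKM (SD, n = 2), 1.44-fold above +R. The log2 difference of 0.51 between R+LE and +R passed the test by little (standard error 0.16, adjusted p = 0.0465 in limma). It no longer passed without +R replicate 2 (log2 difference 0.35, adjusted p = 0.404 in limma), without R+LE replicate 1 (0.37, adjusted p = 0.147) or without either -R library (adjusted p = 0.107 each), and over all alternatives the adjusted p ran from 0.00595 to 0.404. Against -R, Gatm in R+LE stayed lower by a log2 difference of -1.02 (standard error 0.16, adjusted p = 0.000133 in limma). This fall, 2.03-fold from the means, was short of 2-fold without -R replicate 2 (-0.94), without R+LE replicate 2 (-0.87) and after scaling to the median gene (-0.96), to quantiles (-0.93) or to reads on genes other than Rn45s (-0.90).

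Gamt, on chromosome 10 from 80258151 to 80261012 on the minus strand, varied least among the 5 genes that passed a test. It was 17.3 and 15.7 RPKM in -R, 11.5 and 12.2 RPKM in +R, and 13.2 and 10.9 RPKM in R+LE, on 325 to 535 reads per library. Both -R libraries were the highest, and the +R and R+LE libraries overlapped. The log2 difference was -0.46 between +R and -R (standard error 0.14, adjusted p = 0.0152 in limma) and -0.44 between R+LE and -R (standard error 0.14, adjusted p = 0.0253 in limma). Between R+LE and +R it was 0.02 (95% interval -0.29 to 0.32, adjusted p = 0.963 in limma).

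Both falls of Gamt depended on single libraries. The fall with RANKL was lost without -R replicate 1 (adjusted p = 0.125 in limma) or +R replicate 1 (0.0965), over a range of 0.00600 to 0.125 among the alternatives. The difference from -R in R+LE was lost without -R replicate 1 (adjusted p = 0.179 in limma), -R replicate 2 (0.0685) or R+LE replicate 2 (0.127), over a range of 0.00993 to 0.179. With RANKL, 5 of the 6 macrophage markers fell, as did Gatm and Gamt. The sum of 6 neutrophil markers was 15.3 to 17.1 RPKM in -R and 0.660 to 0.816 RPKM in +R. It was 0.564 to 2.53 RPKM in R+LE. Most of this sum came from S100a8 and S100a9, the only 2 tested, which both fell with RANKL. Elane was at 0 in -R and at 0.071 and 0.143 RPKM in +R. No neutrophil marker passed with LE, where Gatm rose. Of the macrophage markers, Mertk rose with LE (log2 difference 0.52, adjusted p = 0.0461 in limma) and none fell. Adgre1 (0.53, adjusted p = 0.0565), Itgam (0.22), Fcgr1 (0.14), Csf1r (-0.16) and Cd68 (-0.41) did not pass. The sum of 7 lymphocyte markers was 2.20 to 2.65 RPKM in -R and 0.300 to 0.501 RPKM in +R. In R+LE it was 0.178 to 0.443 RPKM, and Cd3e was at 0 in every library. The part of any of these cells in the falls of Gatm and Gamt or in the rise of Gatm was not tested. The sum of 5 neuron markers stayed at 0.105 RPKM or less in every library, with Syt1 and Gad1 at 0.

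**Figure D2:**
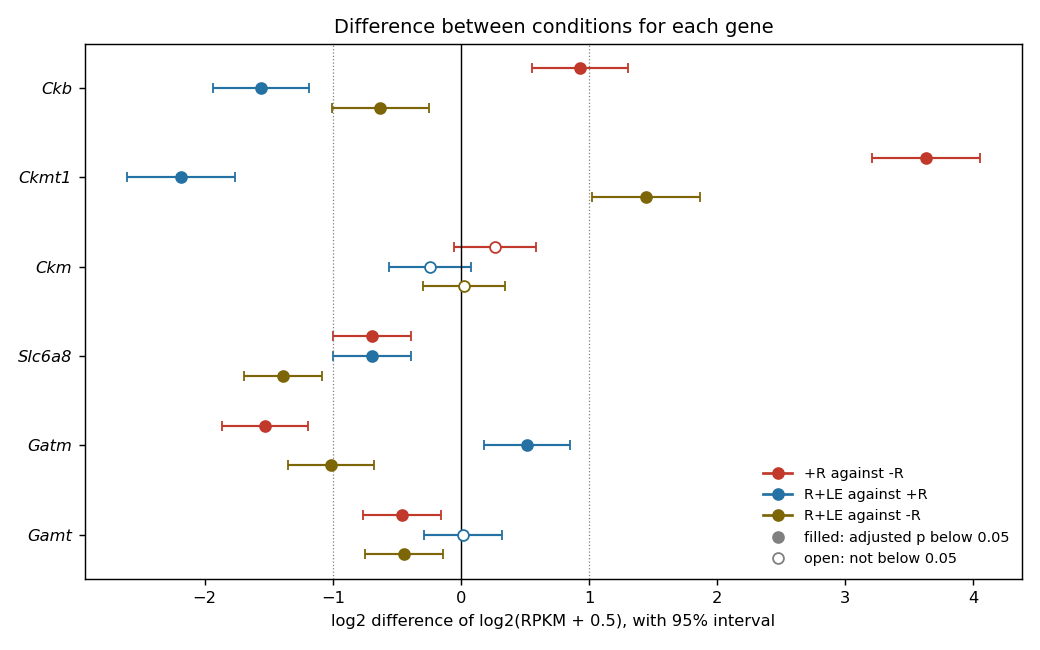
Difference between conditions on the log2(RPKM + 0.5) scale (horizontal axis) for each gene, with 95% intervals from limma over all 6 libraries. Filled points had an adjusted p-value below 0.05 and dotted lines mark a 2-fold change. Ckb and Ckmt1 lie to the right for +R against -R and to the left for R+LE against +R, Gatm does the reverse, and Slc6a8 lies to the left in all 3 comparisons.

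Of the 6 genes, 2 rose from -R to +R (Ckb and Ckmt1), 3 fell (Slc6a8, Gatm and Gamt) and Ckm did not pass, against 23.9% of all genes tested that rose and 21.5% that fell. Of the 6, Ckmt1 and Gatm changed at least 2-fold, against 15.5% of all genes. From +R to R+LE, 3 genes fell (Ckb, Ckmt1 and Slc6a8), Gatm rose, and Ckm and Gamt did not pass, against a background of 6.86% of genes that fell and 5.19% that rose. After scaling to the median gene, 742 genes fell and 792 rose, in place of 795 and 602. The falls of Ckb and Ckmt1 were at least 2-fold, against 3.23% of all genes that changed as much in either direction. Ckmt1 passed the filter on low values only through its +R libraries, so its place in the counts of both comparisons is not independent of that filter.

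Between R+LE and -R, Ckmt1 rose while Ckb, Slc6a8, Gatm and Gamt fell, against 15.3% and 19.0% of all genes. The direction of this background depended on the scaling. In the main fit 1773 genes were higher and 2201 lower. These numbers were 2895 and 1854 when scaled to reads on genes other than Rn45s, 2380 and 2101 to the median gene, and 2531 and 2129 to quantiles. The changes of Ckmt1, Slc6a8 and Gatm between R+LE and -R were at least 2-fold, against 10.3% of all genes. However, Ckmt1 was among the tested genes only through its +R libraries. Its fitted change was 0.90 with a pseudocount of 1 and 6.39 with voom on recovered reads. The median log2 difference over the 6 genes was -0.10 between +R and -R, -0.47 between R+LE and +R and -0.54 between R+LE and -R, beside medians of 0.05, -0.05 and -0.01 over all genes tested. The libraries of the compared conditions did not overlap for 6, 5 and 5 of the 6 genes, where 75.2%, 49.0% and 65.5% of all genes did not overlap. These comparisons share libraries, since each condition enters 2 of the 3.

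Per transcript length, the order of the levels changed between conditions below Ckb. In -R the order was Ckb, Gatm, Slc6a8, Gamt, Ckm and Ckmt1, and every neighbour was apart by more than the SDs. In +R the gap between Ckb and the next gene, Slc6a8, was 26.5-fold, while Slc6a8 and Gatm did not differ beyond their spread, and Ckmt1 stood above Ckm. In R+LE the order was Ckb, Gatm, Slc6a8, Gamt, Ckm and Ckmt1 again, with Slc6a8 and Gamt not apart beyond their spread. Among the 4 creatine kinase genes, which include the sarcomeric mitochondrial Ckmt2, Ckb held 99.2% and 99.1% of the summed RPKM in -R, 98.6% in both +R libraries, and 98.4% and 98.3% in R+LE. The share of Ckmt1 was 0.900% and 0.801% with RANKL alone and 0.386% and 0.370% with LE, and that of Ckm was highest in R+LE, at 1.23% and 1.36%. Ckmt2 had at most 0.044 RPKM in any library.

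Other genes of cellular energy transfer and of the substrates of creatine synthesis were described from lists of 46 genes, of which 31 were tested. With RANKL, 13 of the 31 rose and 2 fell, or 41.9% and 6.45%, and with LE 2 rose and 1 fell, or 6.45% and 3.23%. Over all genes tested these shares were 23.9% and 21.5% with RANKL and 5.19% and 6.86% with LE, so the counts with LE lay near those of all genes. Of the 31, 9 were higher and 4 lower in R+LE than in -R by the same test, or 29.0% and 12.9%, against 15.3% and 19.0% of all genes. Adenylate kinases, which move phosphate between adenine nucleotides beside the creatine system, were listed as 8 genes, and 4 were tested. Ak3 was 14.8 and 16.6 RPKM in -R, 28.2 and 24.0 RPKM in +R, and 25.5 and 20.3 RPKM in R+LE. Both -R libraries were the lowest, and the +R and R+LE libraries overlapped. Ak3 and Ak4, both of the mitochondrial matrix, rose with RANKL by 0.71 and 1.21 on the log2 scale, and neither passed the test with LE. Ak4 was low and its +R libraries lay far apart. It was 0.457 and 0.414 RPKM in -R, 2.364 and 1.132 RPKM in +R, and 1.275 and 1.188 RPKM in R+LE. Its log2 difference with RANKL ran from 0.80 to 1.91 over the alternatives. The cytosolic Ak1 and the nuclear Ak6 passed in no comparison.

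The carriers and pores that link mitochondrial ATP to the cytosol were listed as 7 genes, of which 6 were tested, 5 rose with RANKL and 0 fell, against 23.9% and 21.5% of all genes. The adenine nucleotide translocase gene Slc25a5 was 161.5 and 163.0 RPKM in -R, 459.9 and 399.4 RPKM in +R, and 308.1 and 245.0 RPKM in R+LE. It rose with RANKL (log2 difference 1.40, adjusted p = 9.53e-06) and fell with LE (log2 difference -0.64, adjusted p = 0.0247), the only gene of this list that passed with LE. This fall was lost without +R replicate 1 (adjusted p = 0.240 in limma), without R+LE replicate 2 (0.0531), without either -R library (0.103 each), with no filter (0.124) and with only the compared groups fitted (0.112). The translocase Slc25a4, the phosphate carrier Slc25a3 and the porins Vdac1 and Vdac2 rose with RANKL by 0.85, 0.63, 0.84 and 0.43 on the log2 scale. The rise of Slc25a3 was lost without either -R library or +R replicate 1 (highest adjusted p = 0.0979 in limma), and that of Vdac2 without any one of the -R and +R libraries or with no filter (highest 0.276). Among 6 tested genes of AMPK, the energy sensor, and its upstream kinase Stk11, only Prkag2 rose with RANKL (log2 difference 0.60, adjusted p = 0.0117 in limma) and none passed with LE, while Prkab1 was lower in R+LE than in -R (log2 difference -0.44, adjusted p = 0.0255). Neither passed with no filter or without either -R library, nor did Prkag2 without +R replicate 1 (adjusted p = 0.218 in limma) or Prkab1 without R+LE replicate 2 (0.0880).

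Arginine is a substrate of Gatm, and 8 of 9 listed genes of arginine and ornithine were tested. Arg1, which encodes arginase, was 11.6 and 12.0 RPKM in -R, 0.488 and 0.466 RPKM in +R, and 2.40 and 0.985 RPKM in R+LE. It fell with RANKL (log2 difference -3.66, adjusted p = 7.07e-09 in limma) and rose with LE (log2 difference 1.09, adjusted p = 0.00610). The rise rested on R+LE replicate 1, without which the log2 difference was 0.60 (adjusted p = 0.0518 in limma), and it did not pass with no filter (0.167). Ass1, which encodes argininosuccinate synthase, was 40.2 and 36.8 RPKM in -R, 48.6 and 51.4 RPKM in +R, and 78.4 and 69.4 RPKM in R+LE, and it rose both with LE (log2 difference 0.56, adjusted p = 0.0181 in limma) and with RANKL (0.37, adjusted p = 0.0446). The rise of Ass1 with RANKL was lost without any one of the -R and +R libraries (highest adjusted p = 0.243 in limma) or without the variance trend (0.0562), and that with LE without any one of those libraries (highest 0.150), with no filter (0.0556) or with only the compared groups fitted (0.0601). The cationic amino acid transporters Slc7a1 and Slc7a2 rose with RANKL by 0.95 and 0.86 and did not pass with LE. For Arg2 the log2 difference between R+LE and -R was -0.60 (adjusted p = 0.0216 in limma), which did not pass without -R replicate 1 (0.182), without R+LE replicate 2 (0.0969) or with no filter (0.0712). Nos2, which encodes the inducible nitric oxide synthase, lay below the filter, with 1 read in each -R library, 32 and 30 reads with RANKL, and 4 and 7 reads with LE.

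Of 11 listed genes of S-adenosylmethionine supply and of related methyltransferases, 7 were tested. Ahcy, which clears the by-product of methylation that Gamt also makes, rose with RANKL by 1.13 on the log2 scale (adjusted p = 1.41e-05 in limma), as did the methionine synthase gene Mtr by 0.91. Ahcyl2 fell with RANKL (log2 difference -1.08, adjusted p = 1.02e-05 in limma), and none of the 7 passed with LE. Besides Ckmt2, the listed creatine genes that stayed below the filter were Slc16a9 and Slc16a12, and the latter is a transporter that can release creatine from cells. Its reads numbered 0 in both -R libraries, 20 and 16 with RANKL, and 39 and 52 with LE, so the R+LE libraries were the highest. Without the filter the log2 difference of Slc16a12 was 0.38 between +R and -R (adjusted p = 0.0231 in limma) and 0.43 between R+LE and +R (adjusted p = 0.0622), sizes that depend on the pseudocount.

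**Figure D3:**
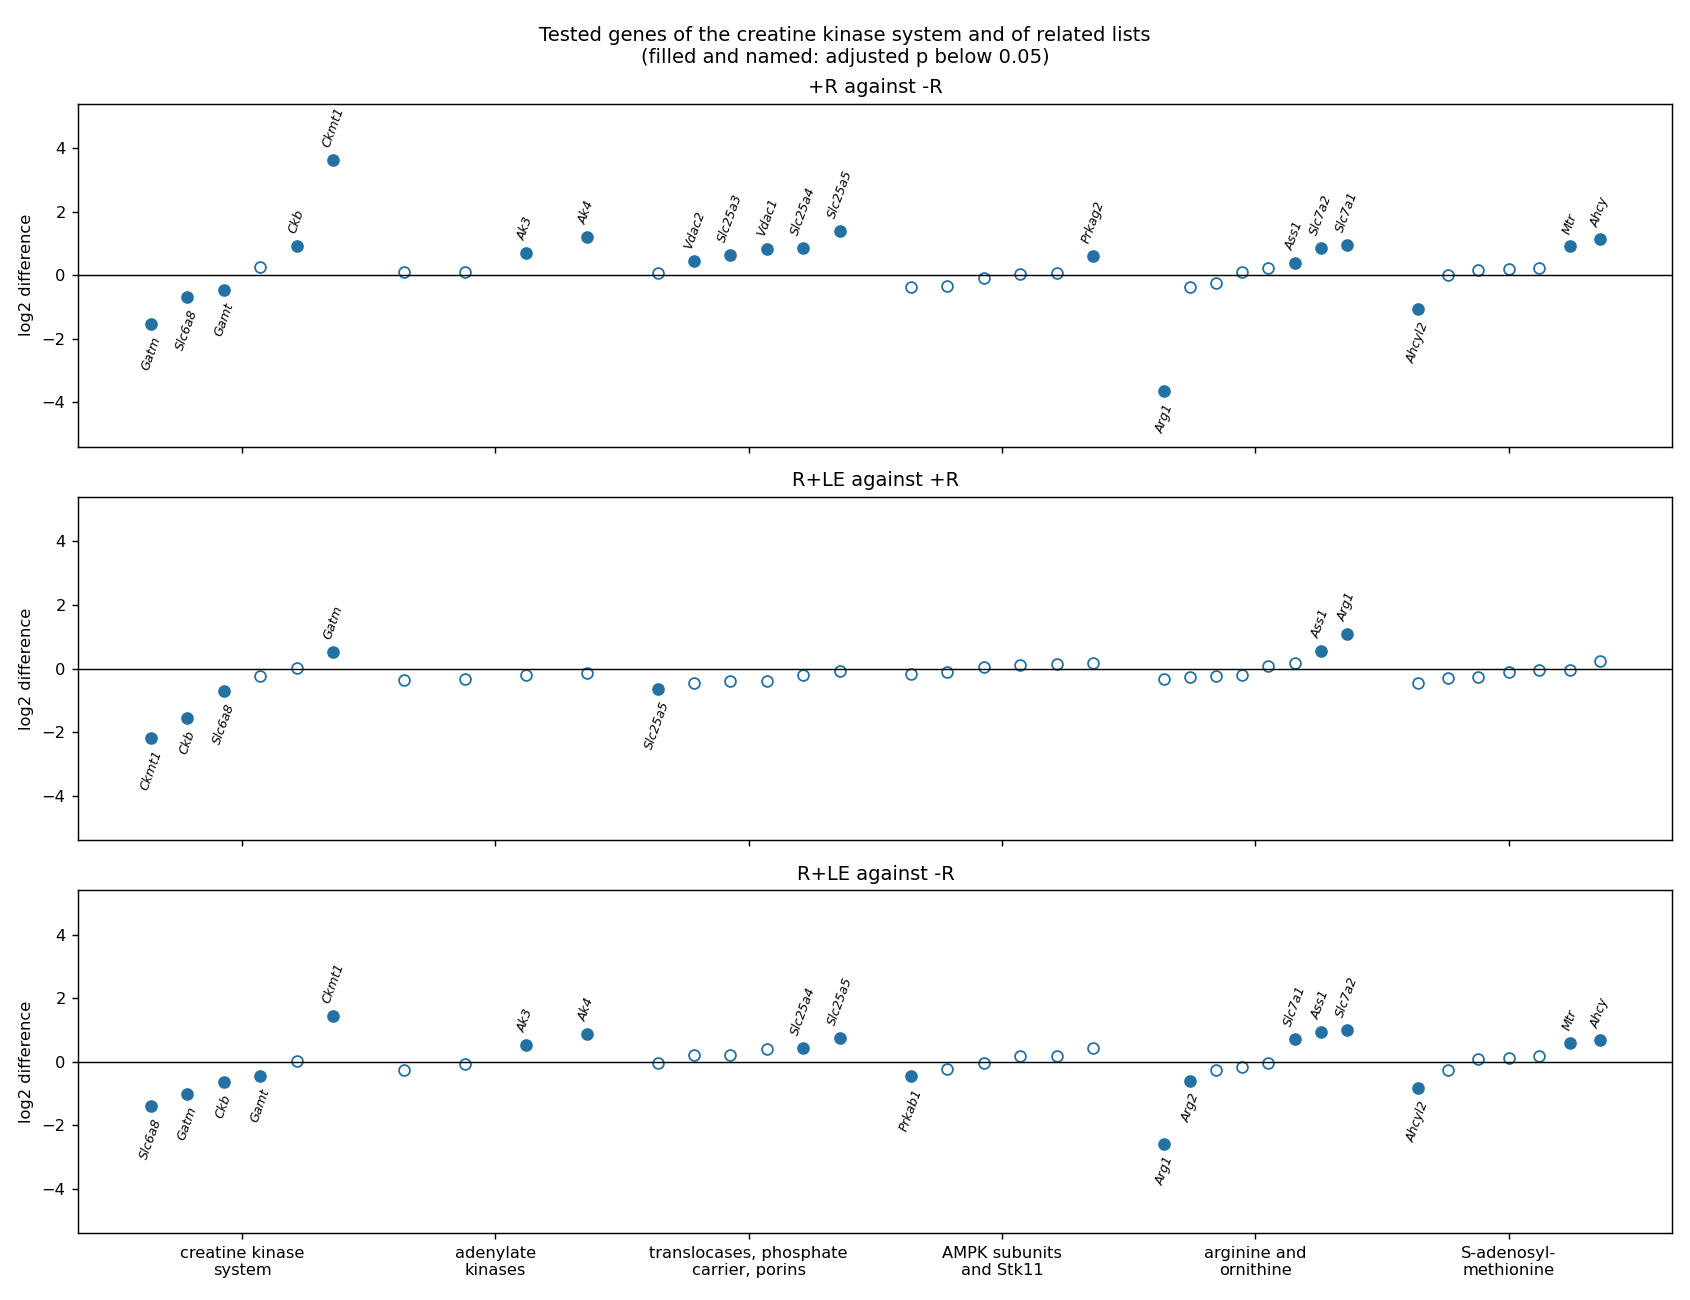
Log2 difference on the log2(RPKM + 0.5) scale (vertical axis) of every tested gene of the creatine kinase system and of the 5 related lists with tested genes, for the 3 comparisons from top to bottom. Filled, named points had an adjusted p-value below 0.05. With RANKL the lists of translocases, adenylate kinases and AMPK hold filled points above 0 only, for AMPK Prkag2 alone. With LE only Slc25a5, Ass1 and Arg1 are filled outside the creatine kinase system.

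The genes whose pattern over the 6 libraries was nearest to each gene with a change of at least 2-fold were found from the Euclidean distance between log2(RPKM + 0.5) values centred on the mean of each gene. This distance is a description over 6 libraries and not a test. Nearest to Ckb were Egr2, an early response transcription factor (distance 0.258), Ndst1, which modifies heparan sulfate (0.356), and Atp6v1b2, a subunit of the proton pump (0.460). Egr2 was 2.52 and 2.27 RPKM in -R, 4.58 and 4.21 RPKM in +R, and 1.24 and 1.22 RPKM in R+LE, so it too was lowest with LE, at a level far below that of Ckb. Nearest to Ckmt1 were the calcitonin receptor gene Calcr (0.280), Akr1c18 (0.359) and Tm4sf19 (0.489). Calcr had 0 RPKM in both -R libraries, 6.54 and 5.82 RPKM in +R, and 1.33 and 0.799 RPKM in R+LE, close to the values of Ckmt1. Akr1c18 belongs to a family of similar genes between which the counting could have split reads.

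Nearest to Slc6a8 were H2-DMb1, a chain of the peptide-loading molecule H2-M (distance 0.224), the sorting nexin gene Snx8 (0.247) and Frmd4b (0.258). Snx8 was close to Slc6a8 in level as well, at 47.3 and 42.2 RPKM in -R, 26.1 and 27.1 RPKM in +R, and 18.3 and 17.6 RPKM in R+LE. H2-DMb1 has a near-identical neighbour, so its reads are uncertain. Nearest to Gatm were Tpd52 (0.136), the inhibitory collagen receptor gene Lair1 (0.166) and the ubiquitin ligase gene Rnf130 (0.177). Rnf130 was 83.0 and 83.8 RPKM in -R, 34.2 and 28.6 RPKM in +R, and 47.4 and 40.3 RPKM in R+LE, and like Gatm it lay between the other conditions in R+LE.

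**Figure D4:**
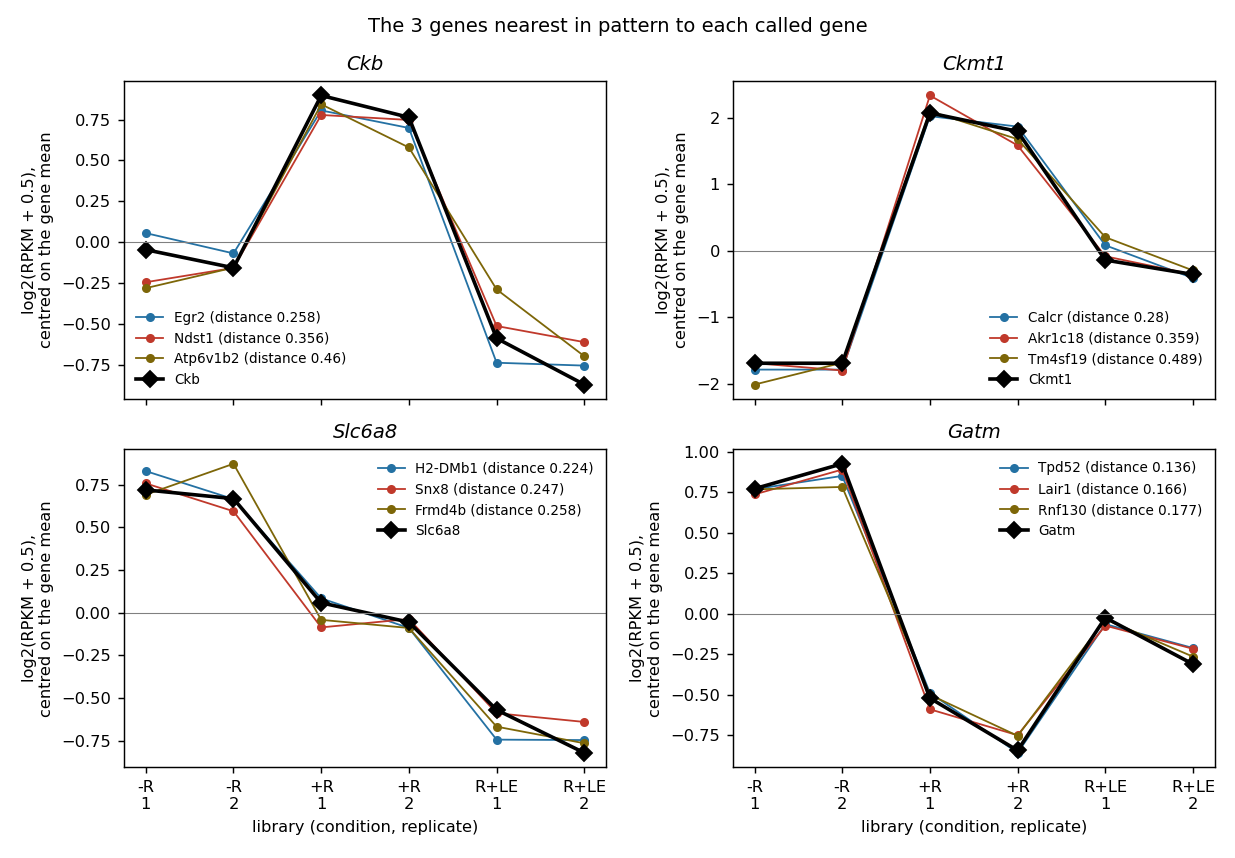
Values of log2(RPKM + 0.5), centred on the mean of each gene (vertical axes), in the 6 libraries (horizontal axis) for Ckb, Ckmt1, Slc6a8 and Gatm in black and for the 3 genes nearest to each in colour, with the distance in the key. Ckb and Ckmt1 peak in +R, Slc6a8 steps down from -R to R+LE, and Gatm is lowest in +R.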

How the data were processed

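Cultured mouse BMMs were sequenced as 2 libraries in each of -R, +R and R+LE, and samples were grouped by the condition in their labels. The authors aligned paired reads to mm10, with TopHat in the methods of the study and HISAT2 in the submitters' processing notes, which also list DESeq2. Versions are not given in the sources used here. With HOMER they counted reads on the exons of 1 transcript per gene on either strand and deposited RPKM values, under column titles that say FPKM. A spreadsheet had changed 26 gene symbols to dates, which their transcript identifiers allowed to be put back. Values came from all 6 columns.

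RPKM values are not counts and were tested with limma 3.58.1 in R 4.3.3 on log2(RPKM + 0.5) for the 11595 genes that averaged 0.5 RPKM or more, with all 3 groups fitted together, a variance trend and Benjamini-Hochberg adjustment. Figures were drawn with matplotlib 3.10.9 from tables made in pandas 2.3.3, numpy 2.4.6 and Python 3.11.15. Whole reads were recovered from RPKM and length (within 0.1 of a read), and replicates differed by more than counting noise (chi-square per gene 11.8 to 26.4). The scripts were tested on simulated data in which every gene had the same relative spread beyond counting noise, so that test does not cover the spread of these libraries. Exons came from GENCODE M21 and upstream sequences from RefSeq on GRCm38.p6. Genes and lists were chosen with earlier results of these data known, and 1 listed gene is not reported here. All listed genes with an adjusted p-value below 0.05 were named, with the 3 genes nearest in pattern, and Slc16a12, Slc16a9, Nos2 and marker genes were added after their values were seen. Alternatives were pseudocounts of 0.1 and 1, other filters and scalings, no trend, only the compared groups, each library left out, voom on recovered reads and a block for the replicate number. Scaling to reads on genes other than Rn45s was added after seeing the data.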

Additional observations from a re-analysis of the deposited data

How the results depend on the processing

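The 18 differences of the 6 genes were recomputed under 17 alternatives, which gave 306 values, of which 286 kept their direction and their side of the threshold. The fall of Ckb below -R in R+LE did not pass with no filter on low values (log2 difference -0.63, adjusted p = 0.0613 in limma), nor did that of Gamt (-0.44, 0.0629). The rise of Gatm with LE did not pass with a pseudocount of 0.1 (0.52, adjusted p = 0.0506), with no filter (0.51, 0.175), without the variance trend (0.51, 0.0775) or with only the compared groups fitted (0.51, 0.103). With each library left out, the log2 difference ranged from -0.77 to -0.49 for Ckb between R+LE and -R, from 0.35 to 0.68 for Gatm between R+LE and +R, from -0.53 to -0.39 for Gamt between +R and -R and from -0.57 to -0.31 between R+LE and -R. The signs turned for Ckm between R+LE and -R (-0.037 without R+LE replicate 1, range -0.037 to 0.082) and for Gamt between R+LE and +R (-0.02 without +R replicate 1 and -0.11 without R+LE replicate 1, range -0.11 to 0.15). The cause of these changes was not tested. With no filter, more genes enter both the pooled spread and the adjustment, and a left-out library leaves fewer samples. Scaled to reads on genes other than Rn45s, the rise of Ckb with RANKL reached 2-fold (1.01 on the log2 scale). The fitted rise of Ckmt1 with RANKL ran from 2.74 to 9.10 with the pseudocount and method. The number of all genes past the adjusted p-value between R+LE and +R was 1397, against 581 with no filter, and between R+LE and -R it was 3974, against 2455 without -R replicate 1 and 2611 without -R replicate 2. Of the 31 related genes, between 9 and 15 rose with RANKL, and with LE between 0 and 2 rose and between 0 and 6 fell. Those that changed at least 2-fold between R+LE and -R numbered 2, against 1 with a pseudocount of 1 and 1 to 3 with each library left out (1 without -R replicate 1 or R+LE replicate 1), and those between R+LE and +R numbered 1, against 0 with a pseudocount of 1, with no filter or without R+LE replicate 1, and 0 to 1 with each library left out. Over all genes tested, 10.3% changed at least 2-fold between R+LE and -R and 3.23% between R+LE and +R. Between +R and -R, 5 of the 31 related genes did, against 15.5% of all genes. Libraries with the same replicate number did not deviate together in every pair of groups (r = -0.05, 0.11 and 0.25 over 11595 genes, which are not independent). The number was therefore not taken as a pairing. With the replicate block the log2 difference stayed -1.56 for Ckb and -2.19 for Ckmt1 between R+LE and +R, no call of the 6 genes changed, and 389 genes were called in place of 375. Ckmt1 in -R, at 0 reads, is limited by depth.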
